A study of Homo sapiens with 20 samples.

Results

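SR proteins and heterogeneous nuclear ribonucleoproteins (hnRNPs) are the 2 large families of proteins that bind pre-mRNA and steer splice site choice. The genes described here are the protein-coding genes named SRSF with a number, those whose symbol starts with HNRNP apart from the HNRNPCL genes, and the SR-like genes TRA2A and TRA2B. They number 37 of 57087 annotated genes, 14 of them SR or TRA2 genes and 23 hnRNP genes, and the rule reads symbols only. Their RNA was measured as mRNA (mRNA-seq, labelled polyA RNA) and as RNA attached to chromatin (chrRNA-seq). The cells were human embryonic kidney cells, with and without shRNAs against small RNA pathway genes. The mRNA-seq set held 3 wt libraries, labelled HEK293T and induced, and 3 shDicer libraries from HEK293 cells that carry a doxycycline-inducible shRNA against Dicer. Both mRNA-seq groups had 3 µg/ml doxycycline for 7 days. The chrRNA-seq set, labelled HEK293, held 2 libraries each of wt, shDicer, shAgo2 and shDrosha cells. The shDicer and shAgo2 cells were lines with an inducible shRNA given 3 µg/ml doxycycline for 72 h, and the shDrosha cells had been transfected with an shRNA plasmid. All cells grew in DMEM, and none of the 14 libraries came from a line with a scrambled shRNA. The study's methods name an inducible clone with tagged Dicer beside the Dicer shRNA and, separately, an inducible shDicer line, and which of the 2 gave these libraries was not settled here.

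An SR protein carries RNA recognition motifs and a tail of arginine-serine dipeptides, binds enhancers in exons and helps U1 and U2AF to recognise the splice sites. An hnRNP coats nascent RNA and often silences splice sites, and several hnRNPs also act in export, stability and translation. Many genes of both families regulate themselves through their own splicing. Excess protein favours a transcript with a poison exon, an exon that brings a premature stop codon, or a transcript that keeps an intron. The first kind is degraded by nonsense-mediated decay (NMD) after translation in the cytoplasm, and the second kind is often held in the nucleus. For this reason the chromatin and total RNA of 1 gene can hold different transcripts.

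Sequencing depth ran from 10216430 to 17215978 estimated counts per library in mRNA-seq and from 17484067 to 21553760 in chrRNA-seq, so that 3 counts, the smallest amount treated as above 0, equal 0.139 to 0.294 CPM, counts scaled to library size. DICER1 was 232 to 257 CPM in wt mRNA-seq and 80.6 to 94.4 CPM in shDicer (log2 change -1.49, edgeR adjusted p = 1.28e-07). In chrRNA-seq DICER1 was not past the threshold in the libraries labelled shDicer (-0.18, adjusted p = 0.166) and was higher in shAgo2 (0.78, adjusted p = 3.59e-05). AGO2 was lower in shAgo2 (-0.62, adjusted p = 9.29e-05), and DROSHA was not lower in the libraries labelled shDrosha (0.07, adjusted p = 0.697). The paper describes knockdown of all 3 proteins as successful by western blot. It also measured their steady-state RNA by qRT-PCR in samples used for chrRNA-seq. RNA attached to chromatin is a different measure from both, so these values do not show whether the knockdowns worked. The HEK293 marker VIM was 85.9 to 137 TPM (a level scaled by transcript length and depth) in mRNA-seq. In chrRNA-seq it was 189 to 200 TPM in wt, 68.3 to 80.4 TPM in shDicer, 88.9 to 97.9 TPM in shAgo2 and 113 to 121 TPM in shDrosha. NEFL was 1.92 to 2.35 TPM in wt and 32.6 to 74.9 TPM in shDicer mRNA-seq. In chrRNA-seq NEFL was 2.61 to 3.36 TPM in the wt and shDrosha libraries and 21.0 to 40.7 TPM in shDicer and shAgo2, while NEFM moved the other way, from 7.14 to 7.2 TPM in wt to 0.31 to 1.08 TPM. The chromatin-held RNA NEAT1 was 17.6 to 18.5 TPM in wt chrRNA-seq, 155 to 189 TPM in shDicer and shAgo2 and 45.8 to 48.4 TPM in shDrosha. Other chromatin-held RNAs did not follow it. MALAT1 was 255 to 259 TPM in wt, 182 to 193 TPM in shDicer, 232 to 262 TPM in shAgo2 and 373 to 384 TPM in shDrosha. KCNQ1OT1 was 15.4 to 17.0 TPM in wt, 10.3 to 11.4 TPM in shDicer and shAgo2 and 13.1 to 16.7 TPM in shDrosha. The mitochondrial RNA MT-CO1, a marker of cytoplasm, was 585 to 632 TPM in wt chrRNA-seq, 905 to 1007 TPM in shDicer, 1304 TPM in both shAgo2 libraries and 694 to 719 TPM in shDrosha. In wt mRNA-seq it was lower, at 169 to 188 TPM. The mitochondrial RNA MT-ND4 was 196 to 198 TPM in wt chrRNA-seq, 158 to 236 TPM in shDicer, 226 to 245 TPM in shAgo2 and 183 to 247 TPM in shDrosha. Summed markers of other cells stayed at 0 to 5.16 TPM for blood, endothelium and liver, KRT5 was at 0, and the fibroblast collagens summed to 0.34 to 20.6 TPM. On chromatin NEFL separates shDicer and shAgo2 from wt. VIM, NEFM, LIN28B, NEAT1 and MT-CO1 separate all 3 shRNA groups from wt, though not all in the same direction. CDH2 is above wt in shDicer, below wt in shDrosha and overlaps wt in shAgo2. The part of these RNAs in the changes below was not tested. Samples are bulk, so fewer cells of a type and less RNA per cell cannot be told apart.

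The 37 genes have 419 annotated transcripts. Of these, 206 are coding, 106 in 27 genes are annotated as retained-intron, 64 in 27 genes as NMD targets and 43 as other types. Among the retained-intron transcripts 36 keep a whole intron and 80 run partly into an intron. Among the NMD transcripts 24 carry an internal exon absent from every coding transcript of the gene, called an extra exon here. The premature stop lies inside that exon, as in a poison exon, in 17 of the 24 and elsewhere in 7. The stretch from the start of a poison exon to the premature stop shows how the reading frame ends. It is printed below from the GRCh38 reference, 5′ to 3′ on the strand of the gene, for 5 genes with a poison exon whose values are given later, and the stop codon is in capitals.
TRA2B-205, chr3:185931772-185931852, minus strand: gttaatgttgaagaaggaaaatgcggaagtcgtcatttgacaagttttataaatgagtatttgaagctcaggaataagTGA
SRSF7-203, chr2:38749152-38749173, minus strand: ggcagaaaatttgagacggTGA
SRSF6-202, chr20:43459153-43459304, plus strand: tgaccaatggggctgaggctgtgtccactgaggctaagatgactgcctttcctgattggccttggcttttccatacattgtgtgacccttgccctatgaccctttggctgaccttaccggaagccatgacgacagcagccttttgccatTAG
HNRNPH1-219, chr5:179621951-179621976, minus strand: cgttggtaacggaaagcgacctgTAA
HNRNPLL-201, chr2:38577956-38578002, minus strand: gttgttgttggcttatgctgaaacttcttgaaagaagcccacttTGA

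The exons behind these stretches are 276 nt in TRA2B, 276 nt in SRSF7, 268 nt in SRSF6, 134 nt in HNRNPH1 and 83 nt in HNRNPLL. Each is preceded by AG in the genome, and followed by GT. The TRA2B exon is 67.4% purine and 32.6% GC, the most purine-rich of the 5. The TRA2B and SRSF7 exons have a length that is a multiple of 3, so including either exon would not by itself shift the frame of what follows.

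Together the 37 genes made up 3934 to 4132 TPM of each wt mRNA-seq library and 3024 to 3052 TPM of each wt chrRNA-seq library. In shDicer the sums were 2231 to 2894 TPM in mRNA-seq and 2535 to 2652 TPM in chrRNA-seq, in shAgo2 2614 to 2646 TPM and in the shDrosha libraries 2677 to 2726 TPM. Neither sum overlapped between wt and shDicer. In wt mRNA-seq HNRNPC, which packages nascent RNA and measures its length, was highest at 612 ± 19.3 TPM (SD, n = 3). It was followed by HNRNPH1, a binder of runs of G, at 342 ± 9.71 TPM and by HNRNPK, a KH-domain binder of C-rich RNA, at 296 TPM. SRSF1 (245 TPM), SRSF3 (242 TPM), HNRNPA1 (241 TPM), HNRNPDL (235 TPM), HNRNPU (216 TPM) and SRSF7 (200 TPM) came next. SRSF2 (119 TPM), TRA2B (114 TPM), HNRNPA2B1 (110 ± 6.68 TPM), SRSF9 (106 ± 6.61 TPM), SRSF11 (103 TPM), SRSF5 (102 TPM), HNRNPF (101 TPM), SRSF10 (98.1 TPM) and HNRNPAB (88.6 TPM) lay in the middle. Below them were HNRNPL (61.5 TPM), SRSF6 (47.3 TPM), HNRNPM (46.8 TPM), HNRNPH2 (43.0 TPM), HNRNPR (40.1 TPM), HNRNPD (39.0 TPM), HNRNPA3 (37.7 TPM), TRA2A (32.8 TPM), SRSF4 (21.2 TPM), HNRNPLL (20.8 TPM), HNRNPUL1 (14.6 TPM) and SRSF8 (10.1 TPM). The lowest were HNRNPH3 (7.65 TPM), HNRNPA0 (4.86 TPM), SRSF12 (3.29 TPM), HNRNPUL2 (2.67 TPM), the readthrough gene HNRNPUL2-BSCL2 (2.15 TPM), HNRNPA1L2 (0.89 TPM) and HNRNPA1L3, which was at 0 in all 14 libraries and was not tested. Neighbours in this order overlapped between libraries in 20 of 36 pairs.

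On chromatin the order differed. HNRNPH1 came first at 376 TPM in wt chrRNA-seq, before HNRNPC (318 TPM), HNRNPA1 (258 TPM), HNRNPK (190 TPM), HNRNPU (168 TPM) and SRSF3 (142 TPM). HNRNPUL1 (124 TPM), HNRNPM (121 TPM), SRSF1 (116 TPM), SRSF4 (67.0 TPM) and HNRNPUL2 (24.5 TPM) stood at these levels there. Neighbours overlapped in 11 of 36 pairs. Levels of near-identical genes are uncertain: 99.2% of the 31-nt words of HNRNPUL2-BSCL2, 77.6% of those of HNRNPA1L2, 58.4% for HNRNPA1L3, 45.5% for HNRNPUL2, 39.1% for HNRNPL, 33.6% for SRSF1, 28.1% for HNRNPA1, 26.6% for HNRNPK and 19.4% for HNRNPH2 also occur in transcripts of other genes. No such word was shared for SRSF4, SRSF7, TRA2B, HNRNPA0, HNRNPA2B1 or HNRNPLL.

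The coding share of a gene's estimated counts was lower in both wt chrRNA-seq libraries than in all 3 wt mRNA-seq libraries for 29 of 35 genes with coding counts, and higher for 3 (SRSF2, HNRNPLL and SRSF8). It was below 50% for 15 genes on chromatin and for 3 genes in mRNA-seq (TRA2B, HNRNPH1 and HNRNPU). The 2 sets also differ in library kit, depth, cell line label and doxycycline, which cannot be told apart from the RNA fraction. They may differ in RNA selection too, which cannot be told apart either. The labels name polyA RNA for mRNA-seq, whereas the study's methods describe removal of ribosomal RNA. The index held introns only where an annotated transcript includes them, so unspliced nascent RNA and a spliced transcript with a retained intron cannot be told apart either.

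**Figure D1:**
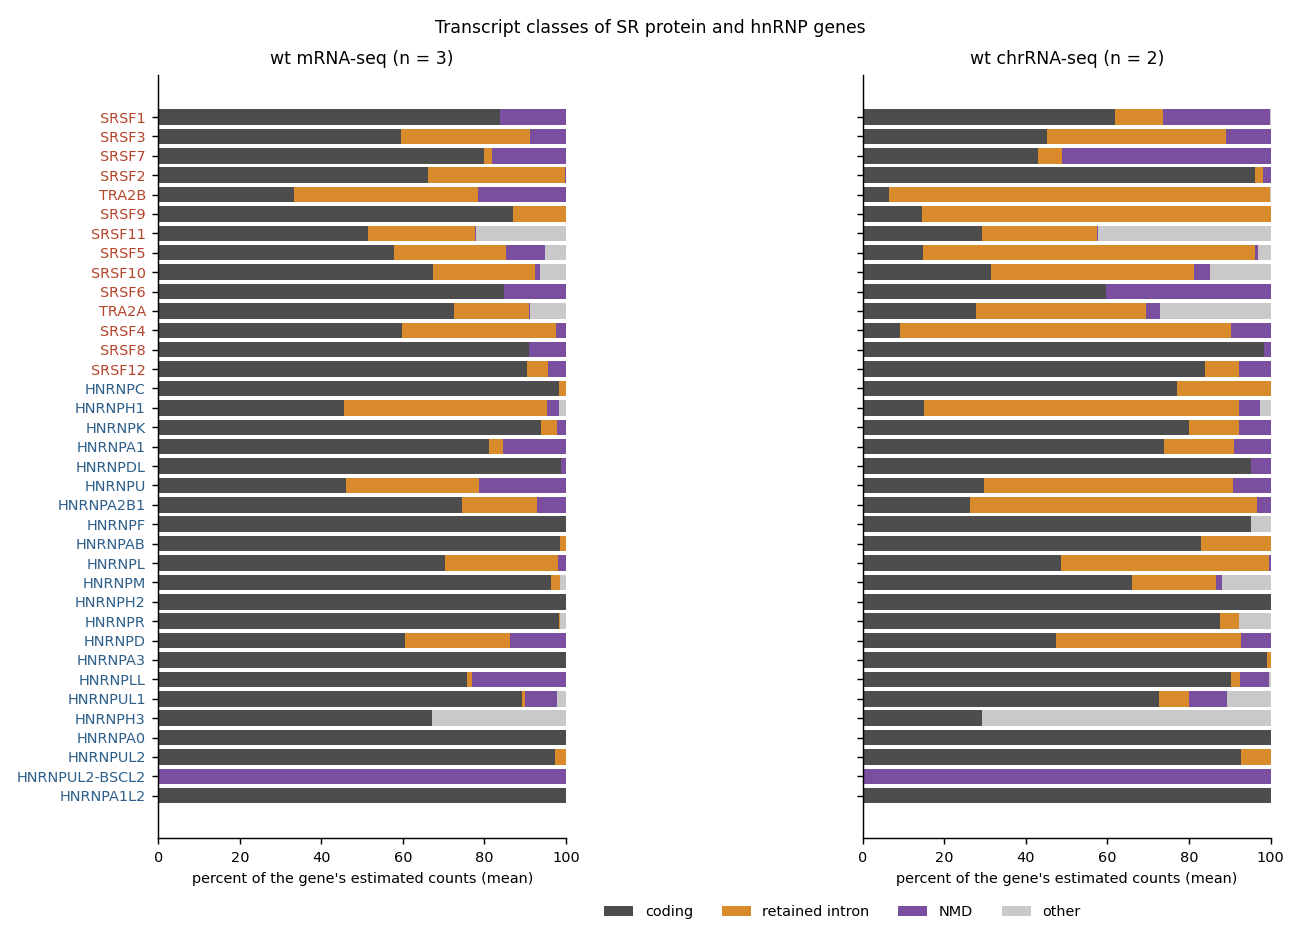
Stacked bars give, for 36 genes, the mean percent of a gene's estimated counts assigned to coding, retained-intron, NMD and other transcripts in wt mRNA-seq (left, n = 3) and wt chrRNA-seq (right, n = 2), with SR and TRA2 labels in red and hnRNP labels in blue. The coding part is below 50% for 15 genes on chromatin and for 3 in mRNA-seq.

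SR genes first, the retained-intron transcripts of SRSF4, SRSF9, TRA2B and TRA2A made up much of the chromatin RNA. For SRSF4 they held 33.9, 41.5 and 37.5% of the counts in wt mRNA-seq and 79.9 and 82.9% in wt chrRNA-seq. The ratio of retained-intron to coding counts was higher on chromatin by 3.84 on the log2 scale (SE 0.191, limma adjusted p = 2.2e-08). SRSF9, a short SR protein related to SRSF1, gave 14, 13.5 and 11.7% against 87.7 and 83.3%, a log2 difference of 5.31 (SE 0.268, adjusted p = 2.4e-08). Its leading retained-intron transcript SRSF9-204 (chr12:120461711-120464943) held 5.28 to 7.24% of the gene's counts in mRNA-seq and 48.4 to 49.1% on chromatin. SRSF1, the founding member of the SR family, had almost no retained-intron counts in mRNA-seq, at 0.09, 0.13 and 0.11%, against 12.4 and 11% on chromatin. Its leading retained-intron transcript SRSF1-202 (chr17:58006242-58007346) had 13.7, 16.3 and 9.91 estimated counts against 654 and 587, and the log2 difference of the ratio was 7.14 (SE 0.329, adjusted p = 1.36e-08). For TRA2A the shares were 19.0, 18.7 and 17.4% against 43.0 and 40.6%, a difference of 2.58. No library of 1 fraction reached the range of the other for SRSF1, SRSF4, SRSF9 or TRA2A.

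SRSF2, an SR protein that binds both C-rich and G-rich exonic motifs, went the other way. Its retained-intron transcripts held 35.2, 33.0 and 32.7% of the counts in wt mRNA-seq and 0.93 and 3.03% on chromatin (log2 difference -4.85, SE 0.536, adjusted p = 8.98e-06). The leading one, SRSF2-206 (chr17:76734147-76736555), held 27.6, 28.4 and 27.4% in mRNA-seq and 0.675 and 2.93% on chromatin, while the coding transcript SRSF2-203 held 14.8, 18.5 and 20.2% against 62.8 and 66.9%. SRSF2-206 shares most of its sequence with other SRSF2 transcripts, with 9.48% of its 31-nt words its own. The ratio was higher on chromatin by 2.40 for SRSF7 and by 0.88 for SRSF3. SRSF12, the SR gene with the lowest TPM in wt mRNA-seq, differed by 0.88 (adjusted p = 0.102).

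Among hnRNP genes HNRNPA2B1, which binds UAG motifs and sorts RNA into transport granules, had 17.5, 17.3 and 19.9% of its counts in retained-intron transcripts in mRNA-seq and 69.9 and 70.8% on chromatin (log2 difference 3.45). HNRNPH1 had 49.7, 48.6 and 50.8% against 77.2 and 77.5% (2.25). HNRNPC had 1.58, 2.04 and 1.75% against 22.6 and 23.4%, a difference of 4.04 (SE 0.164, adjusted p = 6.91e-09). HNRNPR, which binds AU-rich RNA and is abundant in neurons, had 0.20, 0.24 and 0.30% against 3.85 and 5.12% (4.24, SE 0.306, adjusted p = 3.02e-07). Its mRNA-seq shares are only a few counts per library. HNRNPL, a binder of CA repeats, had 27.1, 27.6 and 28.1% against 53.1 and 48.6% (1.41). Its leading retained-intron transcript HNRNPL-205 went the other way, from a mean of 23.5 TPM in wt mRNA-seq to 1.98 TPM on chromatin. HNRNPA3 was called at 4.61 (SE 0.972, adjusted p = 0.0012), but on 0 counts in each mRNA-seq library and 43.6 and 1.68 counts on chromatin, so the size depends on the added 0.5 counts. HNRNPLL, the paralog of HNRNPL that drives CD45 splicing in lymphocytes, differed by 0.40 (adjusted p = 0.541).

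In all, the retained-intron to coding ratio was higher on chromatin for 23 of 27 genes and lower for 1, SRSF2. Over all 7054 genes tested 71.8% were higher and 4.17% lower, and the median difference was 2.48 in the 27 genes and 2.69 in all genes. The differences ran from -4.85 to 7.14. HNRNPL was not past the threshold when TPM replaced counts (adjusted p = 0.0943).

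**Figure D2:**
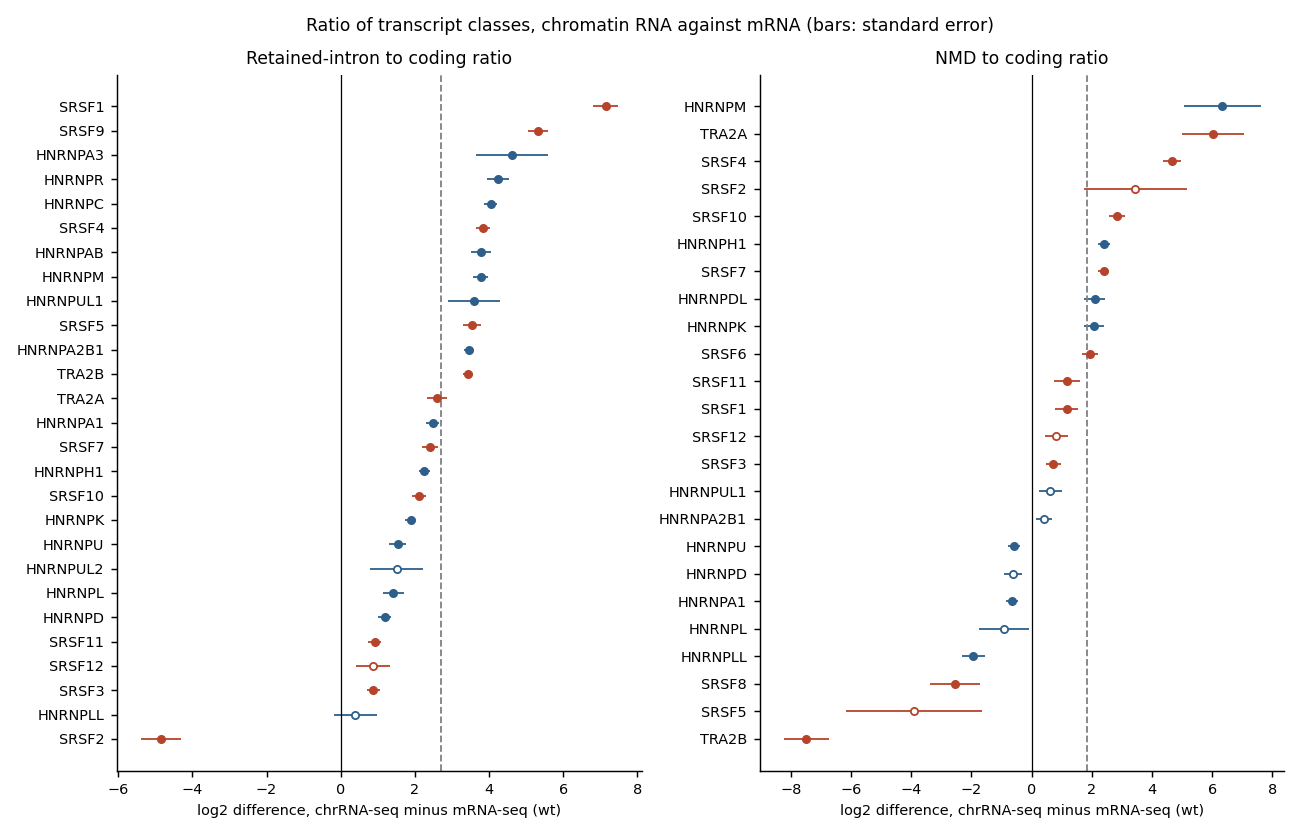
Points give the log2 difference, wt chrRNA-seq minus wt mRNA-seq, in the ratio of retained-intron to coding counts (27 genes) and of NMD to coding counts (24 genes), with bars of 1 SE; filled points passed the threshold and the dashed line is the median of all genes tested. Most points lie right of 0, with SRSF2 far to the left in the first panel and TRA2B in the second.

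The NMD to coding ratio was higher on chromatin for 12 of 24 genes and lower for 5, against 47.7% higher and 12.4% lower of all 4127 genes tested. The median was 0.99 in the 24 genes and 1.85 in all genes. SRSF7 is known for an ultraconserved poison exon, and its transcript with that exon, SRSF7-203, held 0.359, 0.379 and 0.277% of the counts in wt mRNA-seq and 18.6 and 16.4% on chromatin. It is named here after its values were seen, and other SRSF7 transcripts did not follow it. SRSF7-204, with a longer form of the exon (449 nt), held 5.14, 6.74 and 2.75% against 0.655 and 0.886%, and SRSF7-207, with another exon of 69 nt, held 2.19, 2.62 and 0.528% against 1.62 and 2.54%. SRSF7-208, annotated as an NMD target that keeps an intron of 875 nt (chr2:38748654-38749528), held 10.1, 9.80 and 13.4% against 30.5 and 30.9%. All NMD transcripts of SRSF7 together rose from 17.8, 19.5 and 16.9% to 51.4 and 50.7% (log2 difference 2.39, SE 0.184, adjusted p = 2.98e-06). SRSF6-202, with the 268-nt exon printed above, held 15.8, 11.6 and 18.2% against 39.7 and 41.0% (1.94, SE 0.254, adjusted p = 0.000108). The ratio of SRSF3 was higher by 0.72, a call that was lost in 5 of 13 alternatives (without wt mRNA-seq replicate 2 or either wt chrRNA-seq replicate, without the trend, and with only the 2 groups compared), with adjusted p up to 0.134. The ratio was also higher for SRSF10, a splicing repressor when dephosphorylated, and SRSF11, by 2.83 and 1.18.

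HNRNPH1-219, which carries the HNRNPH1 exon printed above, held 1.01, 1.03 and 1.11% of the counts in mRNA-seq and 4.22 and 4.58% on chromatin, and the gene's NMD ratio was 2.41 higher. HNRNPDL, known for conserved exons in its own untranslated end that trigger NMD, had 1.22, 1.24 and 1.01% against 5.17 and 4.33% (2.09). Its leading NMD transcript HNRNPDL-202 went the other way, from a mean of 2.86 TPM in wt mRNA-seq to 0 TPM on chromatin. HNRNPK was higher by 2.06. The fits for HNRNPM (6.34, SE 1.27, adjusted p = 0.00165) and TRA2A (6.02, SE 1.03, adjusted p = 0.000625) rest on few counts. HNRNPM-214 had 0 counts in each mRNA-seq library and 64.5 and 56.4 on chromatin, and TRA2A-203 had 7.90, 0 and 0 against 58.5 and 37.8. SRSF1 had NMD shares of 16.8, 12.8 and 18.5% against 28.6 and 24.0%, a difference of 1.16 that was lost without wt mRNA-seq replicate 2 or wt chrRNA-seq replicate 1. HNRNPA2B1 differed by 0.42, without passing the threshold.

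Lower on chromatin were TRA2B (-7.49), SRSF8 (-2.55, SE 0.819, adjusted p = 0.0209), HNRNPLL (-1.94, SE 0.374, adjusted p = 0.00133), HNRNPA1 (-0.66) and HNRNPU (-0.58). The leading NMD transcript of HNRNPA1, HNRNPA1-210, went the other way, from a mean of 7.22 TPM in wt mRNA-seq to 36.2 TPM on chromatin. HNRNPLL-201, with the 83-nt exon, held 19.2, 23.3 and 26.8% of the counts in mRNA-seq and 6.80 and 7.41% on chromatin. SRSF8-202 held 9.07, 6.87 and 11.1% against 1.64 and 1.46%, and the SRSF8 call was lost without wt mRNA-seq replicate 3 or without either wt chrRNA-seq replicate, with adjusted p up to 0.0928. HNRNPU, a large scaffold protein of chromatin, differed in its NMD transcript, since HNRNPU-224 held 21.0, 17.9 and 19.3% in mRNA-seq and 0% in both chrRNA-seq libraries, while HNRNPU-228 held 9.13 and 8.31% there. Own 31-nt words make up 1.29% of HNRNPU-224, 5.05% of HNRNPLL-201 and 5.09% of SRSF8-202, so these assignments rest on little sequence. When transcripts were instead grouped by holding an extra exon, whatever their annotated type and wherever the frame ends, 9 of 12 genes were higher on chromatin (65.1% of 3539 genes tested) and 1, HNRNPLL, was lower (5.71%). The 9 were SRSF4 (3.95), SRSF10 (3.52), HNRNPU (3.26), HNRNPH1 (2.91), SRSF7 (2.55), TRA2B (2.49), SRSF6 (1.94), SRSF11 (0.90) and SRSF3 (0.72).

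TRA2B, a splicing activator that binds GAA repeats and is known to include its own poison exon, showed how the 2 groupings differ. Its NMD transcript TRA2B-205 held 22.5, 21.8 and 20.2% of the counts in wt mRNA-seq (1125, 1038 and 831 counts) and 0.0443 and 0% on chromatin (2.14 and 0 counts). TRA2B-213, annotated as retained-intron and holding the same 276-nt exon, held 10.5, 10.8 and 12.7% against 35.2 and 35.9%. The 2 transcripts together came to 33.0, 32.6 and 32.9% in mRNA-seq and 35.3 and 35.9% on chromatin. The coding share was 34.6, 32.0 and 33.2% in mRNA-seq and 5.82 and 7.04% on chromatin, and the retained-intron share 42.9, 46.1 and 46.6% against 94.1 and 93.0% (log2 difference of the ratio 3.43). The annotated NMD ratio was -7.49 (SE 0.757, adjusted p = 1.9e-05), and the ratio of extra-exon to coding counts was 2.49 (adjusted p = 3.29e-06). TRA2B-205 has 18.2% of its 31-nt words to itself, so the split between its transcripts rests on a small part of the gene (chr3:185914558-185938103, minus strand).

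SRSF4 (chr1:29147743-29181900, minus strand), a long SR protein, shared no 31-nt word with another gene. Its leading chromatin transcript SRSF4-207 (chr1:29147853-29173494) is 8128 nt long, keeps an intron of 888 nt (chr1:29159487-29160374) and holds an exon of 175 nt that no coding transcript has. It held 32.1, 39.8 and 33.9% of the counts in wt mRNA-seq and 77.2 to 82.4% in all 8 chrRNA-seq libraries. SRSF4-205, an NMD transcript, held 3.55, 1.81 and 2.24% against 10.4 and 8.79%, and the ratio of NMD to coding counts differed by 4.68 (SE 0.301, adjusted p = 1.03e-06). The coding share was 62.5, 56.7 and 60.2% in mRNA-seq and 9.75 and 8.34% on chromatin.

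The same composition was compared between the libraries labelled shDicer, shAgo2 and shDrosha and wt. In mRNA-seq the wt libraries are labelled HEK293T and the shDicer libraries HEK293. On chromatin doxycycline is listed for shDicer and shAgo2 but not for wt. Here and below, cell line label in mRNA-seq, doxycycline on chromatin and the inducible line in both cannot be told apart from the shRNA. The ratio of all unproductive counts (retained-intron plus NMD) to coding counts was tested for 30 genes. In shDicer mRNA-seq it was higher for 1 gene and lower for 2, against 2.03% higher and 10.5% lower of all 8270 genes tested, with a median of -0.20 in the 30 genes and -0.30 in all. SRSF6 rose: SRSF6-202 held 26.5, 22.7 and 22.5% in shDicer against 15.8, 11.6 and 18.2% in wt, with no overlap (log2 change 0.83, SE 0.19, adjusted p = 0.0192). SRSF11 fell from 27.7, 23.9 and 28.2% to 18.6, 17.8 and 20.1% (-0.76, adjusted p = 0.0108), and HNRNPR fell from 0.20, 0.24 and 0.30% to 0.15, 0.07 and 0.07% (-1.33, adjusted p = 0.0122). The HNRNPR shares are only a few counts per library, and its change ran from -1.65 to -0.91 under alternatives. None of the 3 passed when the fit used the 6 mRNA-seq libraries alone (adjusted p 0.144 to 0.192). With the extra-exon grouping, SRSF10 (1.06, SE 0.255, limma adjusted p = 0.0327) and SRSF6 (0.83, adjusted p = 0.0487) rose among 12 genes. Of all genes 1.86% rose, and 0 of the 12 fell, against 6.41%. The SRSF6 value is the SRSF6-202 rise given above and not a separate result. Neither call was run under alternatives in this grouping. SRSF10 transcripts with its extra exon, which is 363 nt long and does not hold the stop, held 0.885, 1.75 and 1.18% in wt and 2.21, 2.11 and 2.53% in shDicer.

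On chromatin 0 of 30 genes changed their unproductive ratio in shDicer, shAgo2 or the libraries labelled shDrosha by limma. Over all genes 0.169% were higher and 0.266% lower in shDicer, 0.193 and 0.266% in shAgo2, and 0.0121 and 0.0363% in shDrosha. At an unadjusted p under 0.05 there were 8, 10 and 8 of the 30 genes, and the medians were 0.18, 0.10 and 0.28 against 0.011, -0.040 and 0.092 in all genes. HNRNPL came nearest in shDicer (1.64, adjusted p = 0.0731). Its unproductive share was 53.6 and 49.0% in wt, 81.2 and 71.2% in shDicer, 73.8 and 74.6% in shAgo2 and 67.7 and 77.4% in shDrosha. All 6 shRNA libraries lay above wt. SRSF7 was 57.4 and 56.5% in wt, 69.1 and 67.1% in shDicer, 68.8 and 66.5% in shAgo2 and 70.2 and 69.8% in shDrosha (0.66 in shAgo2, adjusted p = 0.0972). HNRNPA2B1 was 73.4 and 74.0% in wt and 83.1 and 84.5% in shDrosha (0.88, adjusted p = 0.0892). All 3 comparisons use the same 2 wt libraries. TRA2B stayed at 92.8 to 94.2% unproductive in all 8 libraries. The shDicer change did not differ between fractions past the threshold for any of the 30 genes, with the lowest adjusted p at 0.0598 for HNRNPA2B1 and 8 genes at an unadjusted p under 0.05.

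At the level of whole genes, the shDicer mRNA-seq libraries, labelled HEK293, held less SR RNA than the wt libraries, labelled HEK293T. Of 36 genes tested 16 were lower and 0 higher, against 14.2% lower and 15.6% higher of all 15090 genes at adjusted p under 0.001. The SR and TRA2 genes accounted for 10 of these, with all 14 below 0 and a median of -0.59, and the hnRNP genes for 6 of 22 with a median of -0.19, while the median of all genes was 0.011. SRSF4 was 106, 112 and 103 CPM in wt and 48.0, 49.9 and 54.9 CPM in shDicer (log2 change -1.07, SE 0.0798, edgeR adjusted p = 1.3e-06). SRSF6 went from 330, 336 and 274 CPM to 153, 169 and 158 CPM (-0.97, SE 0.088, adjusted p = 5.32e-06), and TRA2A from 76.1, 79.2 and 94.3 CPM to 40.1, 43.4 and 51.2 CPM (-0.89, SE 0.112, adjusted p = 5.93e-05). In none of these did the groups overlap.

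SRSF1 was 1171, 1151 and 962 CPM in wt and 676, 741 and 628 CPM in shDicer (-0.68, adjusted p = 9.64e-05), a call lost without wt replicate 1 (adjusted p = 0.0016). SRSF2 went from 389, 372 and 371 CPM to 252, 231 and 248 CPM (-0.63, but edgeR adjusted p = 0.00458 on coding transcripts alone). SRSF3 went from 640, 651 and 624 CPM to 395, 466 and 430 CPM (-0.57). TRA2B went from 405, 423 and 422 CPM to 272, 299 and 290 CPM (-0.54). SRSF11 (-0.81), SRSF5 (-0.62) and SRSF7 (-0.43) also fell. The SRSF7 call was lost without any 1 of the 3 wt replicates, with adjusted p up to 0.00272. SRSF8 (-0.39), SRSF9 (-0.36, adjusted p = 0.00108), SRSF10 (-0.28) and SRSF12 (-0.07) did not pass.

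HNRNPD, also called AUF1, a binder of AU-rich elements that sets mRNA stability, was 114, 120 and 114 CPM in wt and 47.5, 56.3 and 56.5 CPM in shDicer (-1.11, SE 0.0843, adjusted p = 1.47e-06). Its paralog HNRNPDL went from 675, 697 and 653 CPM to 325, 349 and 370 CPM (-0.95, SE 0.0717, edgeR adjusted p = 1.41e-06). HNRNPH2 on chromosome X (start 101408222, end 101414133) went from 178, 184 and 173 CPM to 92.8, 109 and 101 CPM (-0.82, SE 0.0761, adjusted p = 6.43e-06), and its paralog HNRNPH1 fell by 0.65. HNRNPA3 (-0.53) and HNRNPC (-0.43) completed the 6. HNRNPA1L2 (-0.74, adjusted p = 0.00534) and HNRNPH3 (-0.53, adjusted p = 0.00139) lay below 0 without passing, and so did HNRNPU (-0.40), HNRNPA2B1 (-0.23, adjusted p = 0.02), HNRNPM (-0.21), HNRNPK (-0.18), HNRNPLL (-0.18), HNRNPUL2-BSCL2 (-0.16), HNRNPAB (-0.14) and HNRNPA1 (-0.07). Near or above 0 were HNRNPL (0.00), HNRNPA0 (0.01), HNRNPUL2 (0.14), HNRNPF (0.15), HNRNPR (0.19) and HNRNPUL1 (0.28), none of which passed. HNRNPL was 129, 121 and 140 CPM in wt and 124, 125 and 142 CPM in shDicer.

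**Figure D3:**
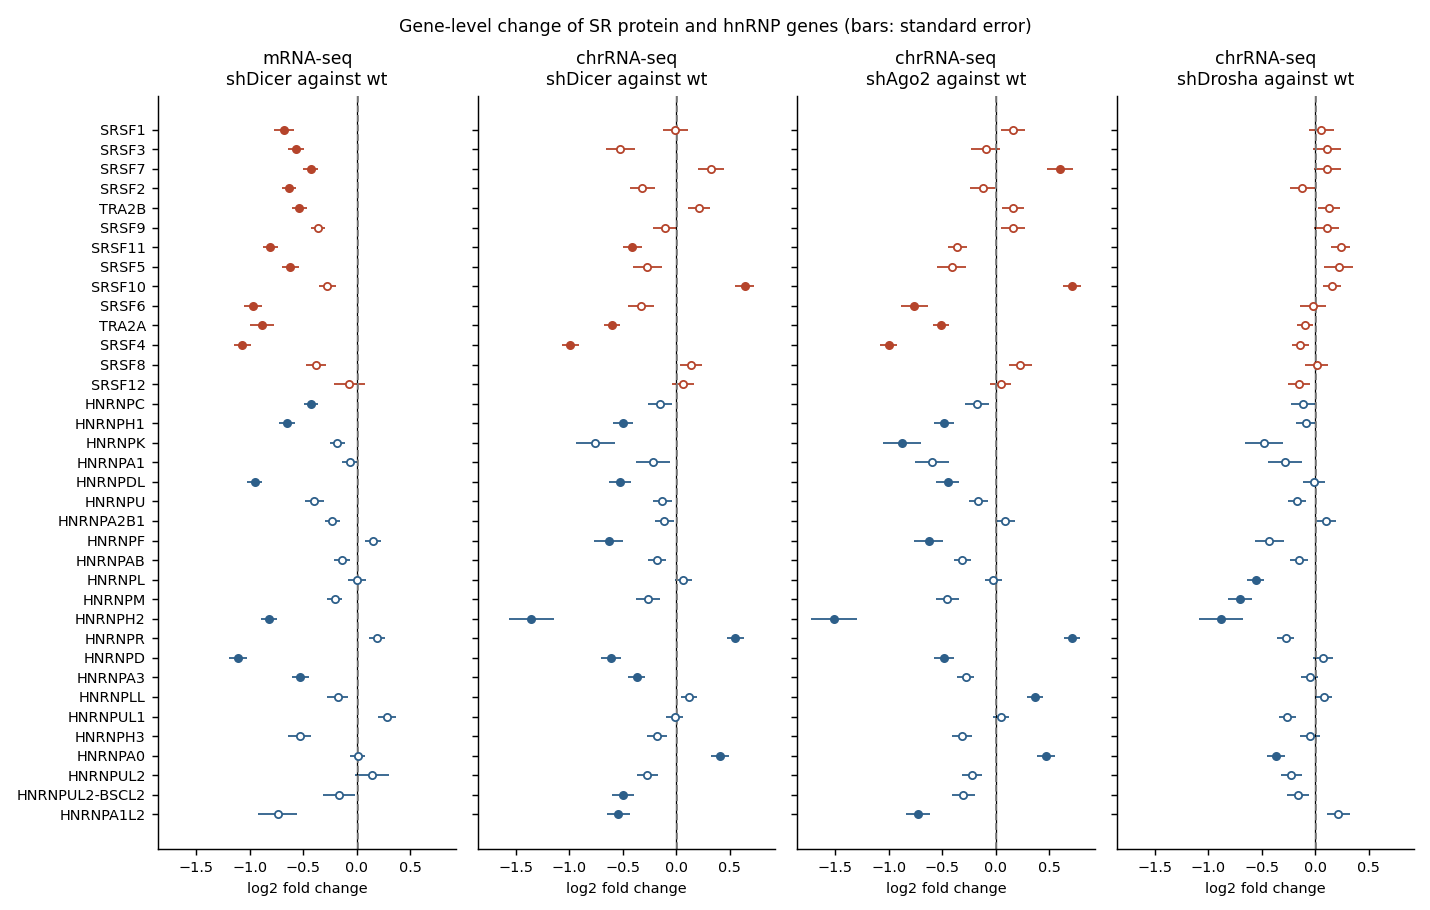
The 4 panels give the log2 fold change of each of 36 genes against wt, with bars of 1 SE, in shDicer mRNA-seq and in shDicer, shAgo2 and shDrosha chrRNA-seq; SR and TRA2 genes are red, hnRNP genes blue, filled points passed the threshold and the dashed line is the median of all genes. In the mRNA-seq panel all 14 SR and TRA2 genes lie below 0, and in the shDrosha panel 4 hnRNP genes passed.

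On chromatin, 11 of the 36 genes were lower and 3 higher in shDicer, against 10.5% lower and 11% higher of all 32874 genes tested at adjusted p under 0.005, and the median was -0.24 against 0.007. SRSF4 went from 372 and 374 CPM in wt to 196 and 180 CPM (-0.99, SE 0.0779, adjusted p = 1.6e-06), TRA2A from 84.1 and 85.2 CPM to 58.4 and 53.3 CPM (-0.60, SE 0.0757, adjusted p = 6.76e-05) and HNRNPH2 from 39.2 and 42.8 CPM to 12.4 and 19.7 CPM (-1.36, SE 0.212, adjusted p = 0.000341). HNRNPD went from 172 and 178 CPM to 108 and 121 CPM (-0.61, SE 0.094, adjusted p = 0.000295). HNRNPF (-0.63), HNRNPA1L2 (-0.54), HNRNPDL (-0.53), HNRNPUL2-BSCL2 (-0.50), HNRNPH1 (-0.50), SRSF11 (-0.41) and HNRNPA3 (-0.37) were the other lower genes. SRSF10 rose from 119 and 124 CPM to 182 and 197 CPM (0.64, SE 0.0866, edgeR adjusted p = 0.000119). HNRNPR rose from 78.9 and 82.1 CPM to 117 and 119 CPM (0.55, SE 0.0779, adjusted p = 0.000162). HNRNPA0, an intronless gene, rose from 54.7 and 59.0 CPM to 76.2 and 74.8 CPM (0.41, SE 0.0844, adjusted p = 0.00239). The count of calls rests on few libraries: 14 became 5 without wt replicate 1, 5 without wt replicate 2 and 8 without shDicer replicate 1. SRSF4, TRA2A and HNRNPH2 passed under every alternative run, while HNRNPR and HNRNPD each lost the call without 1 wt library. Of 12 alternatives, some of which leave 1 library in a group, HNRNPA1L2 lost the call in 8 and HNRNPA0 in 6. HNRNPF lost it in 5, HNRNPDL in 4 and HNRNPH1 in 3. SRSF3 (-0.52) was not called in the main fit but passed in 4. Counted on coding transcripts alone, SRSF10 differed by 0.29 (adjusted p = 0.0321) and was no longer past the threshold. Between mRNA-seq and chrRNA-seq, which share no library, 8 genes were lower in shDicer in both (SRSF4, SRSF11, TRA2A, HNRNPA3, HNRNPD, HNRNPDL, HNRNPH1 and HNRNPH2). They were 50% of the 16 and 72.7% of the 11. Over all genes 1145 were lower in both, 53.4% of the mRNA-seq list and 33% of the chrRNA-seq list. These lists come from 15090 genes tested in mRNA-seq and 32874 on chromatin, and a gene tested only on chromatin could not be in both. The 36 genes were tested in both, so the 33% is not a like baseline for the 72.7%.

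In shAgo2, 10 genes were lower and 5 higher, against 12.1% and 12.5% of all genes, with a median of -0.25 against 0.003. The wt libraries are those of the shDicer comparison. HNRNPH2 was 13.2 and 15.5 CPM (-1.51, SE 0.214, adjusted p = 0.000139), SRSF4 180 and 193 CPM (-1.0, adjusted p = 1.22e-06) and SRSF6 105 and 119 CPM against 179 and 202 CPM in wt (-0.76, SE 0.126, adjusted p = 0.000427). HNRNPK went from 381 and 430 CPM to 210 and 232 CPM (-0.87, SE 0.179, adjusted p = 0.002), HNRNPF from 175 and 194 CPM to 113 and 126 CPM (-0.63, adjusted p = 0.00265), and HNRNPA1L2 from 16.9 and 16.0 CPM to 9.34 and 10.5 CPM (-0.73, adjusted p = 0.000252). TRA2A (-0.51), HNRNPD (-0.49), HNRNPH1 (-0.49) and HNRNPDL (-0.45) were also lower. Higher were SRSF10 at 199 and 201 CPM (0.71, adjusted p = 4.21e-05), HNRNPR at 133 and 131 CPM (0.71, adjusted p = 1.84e-05), SRSF7 at 259 and 265 CPM against 161 and 185 CPM in wt (0.60, SE 0.124, adjusted p = 0.00212), HNRNPA0 at 75.1 and 82.4 CPM (0.47, adjusted p = 0.000804) and HNRNPLL at 59.5 and 60.8 CPM against 45.5 and 47.6 CPM (0.37, adjusted p = 0.00169). The 15 calls became 7 and 6 without wt replicates 1 and 2, and 6 and 7 without shAgo2 replicates 1 and 2. HNRNPH2, SRSF4, SRSF10 and HNRNPR passed in each of these fits, whereas HNRNPK, HNRNPF, HNRNPH1, HNRNPDL, SRSF7 and HNRNPLL passed in none of the 4. On coding transcripts alone SRSF10 (0.21, adjusted p = 0.097) and SRSF7 (0.21, adjusted p = 0.225) did not pass.

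Set directly against each other, shDicer and shAgo2 differed for 0 of 36 genes by edgeR, and for 0 by DESeq2, against 1.37% higher and 1.34% lower of all genes. At an unadjusted p under 0.05 there were 6 genes, and log2 differences ran from -0.43 (SRSF3) to 0.43. SRSF6 came nearest, at 151 and 151 CPM in shDicer and 105 and 119 CPM in shAgo2, a difference of 0.43 (edgeR adjusted p = 0.0503). Its 95% interval by a normal approximation was 0.187 to 0.678. That interval is not corrected for 36 genes and is too narrow for so few libraries.

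In the libraries labelled shDrosha, in which DROSHA RNA on chromatin was not lower, 4 genes were lower and 0 higher at adjusted p under 0.05. Of all genes 2.18% were lower and 1.19% higher, and all 4 genes were hnRNP genes. HNRNPL went from 149 and 157 CPM in wt to 110 and 98.1 CPM (-0.56, SE 0.0795, edgeR adjusted p = 0.00542). HNRNPM, a binder of GU-rich RNA, went from 226 and 238 CPM to 158 and 126 CPM (-0.71, SE 0.111, adjusted p = 0.00807). HNRNPH2 went to 27.3 and 17.2 CPM (-0.88, SE 0.207, adjusted p = 0.0398) and HNRNPA0 to 46.5 and 41.7 CPM (-0.37, SE 0.0867, adjusted p = 0.042). HNRNPM also had a smaller coding share, 47.4 and 39.5% against 66.4 and 65.4% in wt. On coding transcripts alone HNRNPL (-1.32) and HNRNPM (-1.24) differed more, HNRNPA2B1 passed as lower (-0.54, adjusted p = 0.0285), and with counts scaled from TPM by length HNRNPM did not pass (-0.27, adjusted p = 0.168). The median of the 36 genes was -0.094 against 0.005. None of the 4 passed without wt replicate 1 or without wt replicate 2, and 7 genes passed without shDrosha replicate 1. The SR and TRA2 genes ran from -0.15 to 0.24, with the lowest adjusted p at 0.165 and 1 of 14 at an unadjusted p under 0.05. SRSF4 was 338 and 340 CPM, and SRSF10 was 146 and 126 CPM. Against the shDrosha libraries, 4 genes were higher and 8 lower in shDicer (11% and 9.51% of all genes) and 4 higher and 7 lower in shAgo2 (11.6% and 10.3%) by edgeR at adjusted p under 0.005. SRSF3 was 403 and 294 CPM, a spread between the 2 libraries as wide as any difference from wt (300 and 347 CPM).

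**Figure D4:**
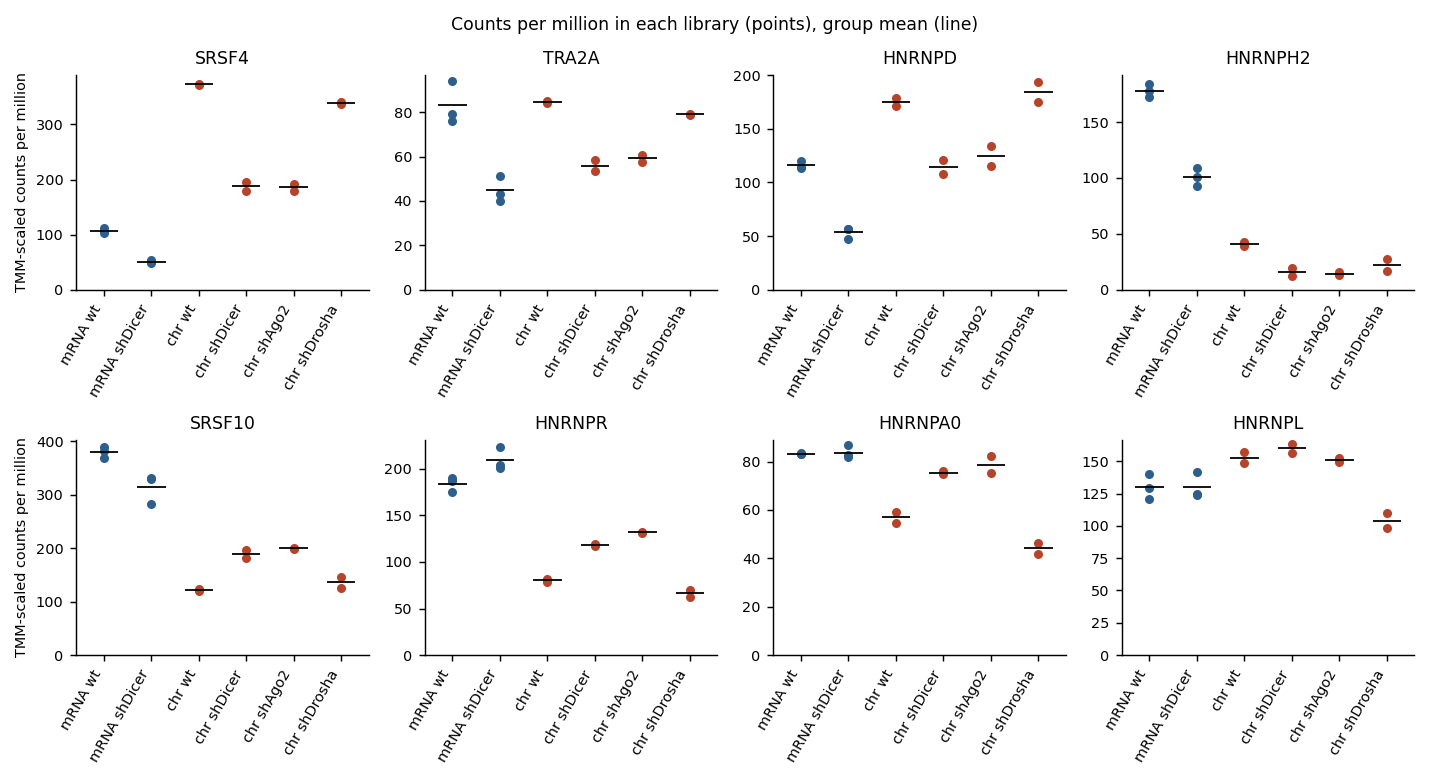
Each point is 1 library and gives the TMM-scaled CPM of SRSF4, TRA2A, HNRNPD, HNRNPH2, SRSF10, HNRNPR, HNRNPA0 and HNRNPL in the 6 groups, mRNA-seq in blue and chrRNA-seq in red, with a line at the group mean. SRSF4 is lower in shDicer in both fractions and in shAgo2, while SRSF10 and HNRNPR are higher on chromatin in shDicer and shAgo2.

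Genes that work with these families were counted from 5 lists, and the share of all genes called stands beside each comparison. In shDicer mRNA-seq (14.2% lower and 15.6% higher) the SR protein kinases and importers gave 4 lower and 0 higher of 8 tested, with CLK2, which phosphorylates SR proteins in speckles, at -0.94. SR-related coactivators gave 9 lower and 0 higher of 12 (BCLAF1 -0.98), 3′ splice site and branch point factors 4 and 0 of 10 (U2AF1 -1.64), other hnRNP-type regulators 8 and 0 of 22 entries for 21 symbols, since MATR3 has 2 gene identifiers (PTBP2, the neuronal PTB, -1.57), and NMD and exon junction factors 6 lower and 2 higher of 15 (UPF3A 1.27). On chromatin in shDicer (10.5% and 11%) the same lists gave 3 and 0 of 9, 7 lower and 1 higher (LUC7L -0.68), 7 and 0, 8 and 0 (KHDRBS1 -1.43), and 4 and 1 (RBM8A -0.54). In shAgo2 (12.1% and 12.5%) they gave 3 lower and 1 higher (CLK2 -0.82), 4 and 1 (SON -0.84), 9 and 0, 7 and 1 (KHDRBS1 -1.22), and 5 and 0 (MAGOHB -0.71). In shDrosha (2.18% and 1.19%) they gave 1 lower and 0 higher (SRPK3 -0.69), 1 and 0 (SRRM2 -0.53), 4 and 0 (U2AF2 -0.51), 4 and 1 (PTBP1 -1.02), and 1 and 0 (UPF1 -0.56). U2AF1, the subunit that reads the AG of the 3′ splice site, was lower by -1.50 in shDicer and -4.61 in shAgo2 on chromatin, and higher by 3.11 in shDicer than in shAgo2, but a near-identical annotated copy makes its counts uncertain. The other direct shDicer to shAgo2 calls (1.34% and 1.37%) in these lists were 1 higher and 1 lower hnRNP-type regulator (MATR3 -0.73, in 1 of its 2 overlapping gene entries, between which its counts could be split).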

How the data were processed

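The authors quantified mRNA-seq and chrRNA-seq reads with kallisto on hg38 transcripts and deposited, per library, estimated counts and TPM (a level scaled by transcript length and library depth) for 217082 transcripts. Of these transcripts 193697 (89.2%) matched GENCODE 44 identifiers on GRCh38 once the version was dropped, with 93.4 to 94.8% of the counts. Deposited estimated counts were summed per gene and rounded. Genes were tested with edgeR 4.0.16 (R 4.3.3; quasi-likelihood, TMM, filterByExpr, Benjamini-Hochberg over all genes), with the 6 mRNA-seq and the 8 chrRNA-seq libraries fitted separately. Ratios of transcript classes were tested with limma 3.58.1 on log2((class + 0.5)/(coding + 0.5)) in 14 libraries, for genes with a mean count of at least 10 in both classes, at adjusted p under 0.05. DESeq2 1.42.0 was an alternative. CPM values are TMM-scaled. Levels between genes are compared in TPM. Nothing in the labels says that libraries came from separate cultures, so p-values measure the spread between these libraries, which may be technical. Biological coefficients of variation were 0.109 (mRNA-seq) and 0.0739 (chrRNA-seq). On simulated data the gene fits recovered 75.8% (shDicer mRNA-seq, 14828 genes) and 65.0% (shDicer chrRNA-seq, 32142 genes) of genes changed by a log2 of 1. The retained-intron ratio fit (7054 genes) recovered 84.0% of those changed by 2. False calls were 1, 1 and 10. Each simulation gave all genes the same dispersion. Real transcript classes can vary more, so recovery in these data may be lower. Members and lists were chosen with earlier results of these data known. Genes with values were named by a rule: up to 6 rises and 6 falls per comparison (6 and 3 for ratios), the 3 highest and 3 lowest in TPM, and 10 genes known for autoregulation. Transcripts SRSF2-203, SRSF7-203, TRA2B-213, TRA2B-214 and HNRNPU-228 fall outside it and were chosen after their values were seen. The 6 small RNA libraries of the series were not analysed here. The labels name polyA RNA for mRNA-seq, whereas the study's methods describe removal of ribosomal RNA.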

Additional observations from a re-analysis of the deposited data

Results flagged for a closer look

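The libraries labelled shDrosha were set directly against shDicer and shAgo2 in chrRNA-seq, a comparison added after the data had been examined, since effects against wt that pass in 1 group and not in another are no test of a difference. With edgeR at adjusted p under 0.005, 12 genes differed between shDicer and shDrosha, 4 higher and 8 lower (11% and 9.51% of all genes), and 11 differed between shAgo2 and shDrosha, 4 higher and 7 lower (11.6% and 10.3%). The 2 comparisons share the shDrosha libraries. In shDicer relative to shDrosha, the SR and TRA2 genes SRSF4 (-0.85), SRSF11 (-0.65), SRSF3 (-0.63) and TRA2A (-0.50) were lower and SRSF10 (0.48) was higher on the log2 scale. Among hnRNP genes HNRNPA1L2 (-0.76), HNRNPD (-0.69), HNRNPDL (-0.51) and HNRNPH1 (-0.41) were lower, and HNRNPR (0.83), HNRNPA0 (0.77) and HNRNPL (0.62) higher. In shAgo2 relative to shDrosha, SRSF4 (-0.86), SRSF6 (-0.74), SRSF5 (-0.63), SRSF11 (-0.60), TRA2A (-0.41), HNRNPA1L2 (-0.94) and HNRNPD (-0.56) were lower, and HNRNPR (0.99), HNRNPA0 (0.84), SRSF10 (0.56) and HNRNPL (0.54) higher. The shDicer and shAgo2 cells are inducible lines and the shDrosha cells were transfected, which cannot be told apart from the shRNA target.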

How the results depend on the processing

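Of 1688 values of single genes under alternatives, 1550 (91.8%) kept their side of the threshold and, where called, their direction. A value called in neither fit counted as kept even if its sign changed. SRSF7 in shDicer chrRNA-seq did so, at 0.32 in the main fit and -0.07 to 0.42 under alternatives. Another 116 values lost the call, 20 gained it and 2 reversed with a call. The reversals were HNRNPA2B1 in shDrosha counted on coding transcripts only (-0.54, adjusted p = 0.0285) and the TRA2B NMD ratio by exon structure (2.49), a grouping added after seeing the data. In shDicer chrRNA-seq 14 calls became 9 with counts scaled from TPM by length, 8 with a replicate block and 5 to 11 without 1 library. In shAgo2 15 became 8 on coding transcripts only, 23 with only the 2 groups compared and 6 to 7 without 1 library. In shDrosha 4 became 1 with scaled counts, 2 with the block and 0 to 7 without 1 library. In shDicer mRNA-seq 16 became 12 to 17 without 1 library and 17 with the block. The 17 NMD calls became 10 with the structural grouping and 11 to 15 without 1 library, lowest without wt chrRNA-seq replicate 1, and the 24 retained-intron calls stayed at 24 without 1 library and were 23 to 25 under the other settings of the fit and 18 of 21 with the whole-intron grouping. For the unproductive ratio, the 3 calls in shDicer mRNA-seq became 5 with a pseudocount of 5, 0 with only the 2 groups, 7 with the block and 3 to 7 without 1 library (7 without shDicer replicate 3). The 0 calls on chromatin became 1 in shDicer (pseudocount of 5, TPM), 1 in shAgo2 (TPM, only the 2 groups) and 1 in shDrosha (only the 2 groups), and 0 to 1 without 1 library in shDicer and shAgo2. shDicer against shAgo2 gave 0 throughout. Causes were not tested. Leaving out a chrRNA-seq library leaves 1 library in its group, which is assumed to vary like the others. Same-numbered replicates correlated at 0.046 to 0.081 in mRNA-seq and -0.131 to 0.028 in chrRNA-seq, so the numbers were not taken as pairs. With the shDrosha numbers crossed, the shDicer to shDrosha calls were 15, against 12 without a block and 9 with it. The ratio fits at low counts depend on the added 0.5, and 2 libraries per chrRNA-seq group limit every call there.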
